A study of Homo sapiens with 3 samples.

Results

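Kinesins are motor proteins that use ATP to move along microtubules, and the human genome encodes them mostly under symbols that begin with KIF. In dividing cells one set builds the spindle, moves chromosomes and completes the separation of daughter cells, and its transcripts are made mainly in G2 and M phase. In neurons, which do not divide, another set carries vesicles, mitochondria and cytoskeletal proteins from the cell body into axons and dendrites. A teratoma, a benign tumour in which pluripotent stem cells form tissues of the 3 germ layers, can hold both dividing precursors and young neurons.

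The kinesin genes were the symbols made of KIF or KIFC, a number and at most one letter from A to C. There were 42 of them among 27307 genes, with 94 of the 59443 listed RefSeq transcripts. Levels came from 3 replicate RNA-seq libraries of teratoma, all of one group with no comparison group. The tumours were grown from H1, an established human embryonic stem cell line, by injecting 1000000 cells subcutaneously into immunodeficient SCID-beige mice and collecting the tumours after 3 to 4 weeks. The libraries are called teratomas 1, 2 and 3 by their replicate number. Whether they came from separate tumours or animals is not stated in the labels, and technical spread between them is possible. The kinesins were divided by their known roles into 14 mitotic, 10 axonal transport, 7 other cargo, 6 cilium and centriole and 5 remaining genes. Several cross these borders: KIF3A, KIF3B and KIF5B also work in cells other than neurons, KIF3A and KIF3B carry cargo in cilia, and KIF2A serves both spindles and axons.

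Levels are given as RPKM (reads per kilobase per 1000000 library reads) of the transcript with the highest mean for each gene. The kinesins took 114752, 133561 and 212142 of the 46243200, 45815401 and 43605459 reads of teratomas 1, 2 and 3. Teratoma 3 stood farthest from the other libraries over all genes, with a chi-square per gene of 313 against teratoma 1 and 233 against teratoma 2, beside 57.7 between teratomas 1 and 2. All 14 neuron markers were highest in teratoma 3, with a summed level of 932, 1205 and 3241 RPKM in teratomas 1, 2 and 3, and none of these markers was at 0. All 8 fibroblast and mesenchyme markers were lowest there, with 2051, 1707 and 479 RPKM in sum. Of genes averaging 1 RPKM or more, 39.9% were highest and 48.1% lowest in teratoma 3. Of 6 neural progenitor markers, 5 were highest in teratoma 3, and VIM was lowest there (1098, 981 and 787 RPKM). FABP7 (34.3, 48.8 and 134 RPKM) and PAX6 (4.22, 9.21 and 13.8) differed most, and SOX2 (86.8, 87.1 and 107) less. The neuron and mesenchyme markers varied between libraries along with the kinesin levels below. The part of any of these marker lists in the kinesin levels was not tested. In bulk tissue, fewer cells of a type and less RNA per cell cannot be told apart. How reads of the host mouse were treated is not given.

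Promoter windows of most mitotic kinesins shared short sequence elements. The cell cycle genes homology region (CHR) is a short element, with TTTGAA or TTTAAA at its core, through which genes of late cell cycle phases are held off in resting cells, and it is often found downstream of CCAAT boxes, which bind NF-Y. RefSeq windows of GRCh38.p14, from 250 bases before to 50 after an annotated gene start, were found for all 14 mitotic and for 8 of the 10 axonal kinesins. Shown here are 120 bases of the windows of 7 mitotic kinesins, from 100 before to 20 after the start, 5′ to 3′ on the gene's strand. They are shown because most mitotic genes share the elements marked in them. Capitals mark both forms of the CHR core and the CCAAT box on either strand, so a core may read TTCAAA and a box ATTGG where the match is on the other strand.
KIF20A: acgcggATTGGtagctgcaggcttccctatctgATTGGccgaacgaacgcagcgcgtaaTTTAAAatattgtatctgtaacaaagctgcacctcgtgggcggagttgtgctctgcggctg
KIF11: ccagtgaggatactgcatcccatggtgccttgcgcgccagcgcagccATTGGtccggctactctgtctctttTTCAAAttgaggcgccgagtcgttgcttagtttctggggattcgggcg
KIFC1: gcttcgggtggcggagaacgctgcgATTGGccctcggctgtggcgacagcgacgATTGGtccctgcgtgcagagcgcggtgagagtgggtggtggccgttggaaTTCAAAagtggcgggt
KIF18B: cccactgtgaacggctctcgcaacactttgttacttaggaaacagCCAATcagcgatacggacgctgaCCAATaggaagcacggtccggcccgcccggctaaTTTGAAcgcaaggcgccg
KIF23: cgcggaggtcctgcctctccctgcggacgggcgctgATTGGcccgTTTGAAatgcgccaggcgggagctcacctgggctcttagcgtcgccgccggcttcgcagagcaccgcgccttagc
KIF4A: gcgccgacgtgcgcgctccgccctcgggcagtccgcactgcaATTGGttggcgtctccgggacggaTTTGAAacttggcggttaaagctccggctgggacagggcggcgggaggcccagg
KIF4B: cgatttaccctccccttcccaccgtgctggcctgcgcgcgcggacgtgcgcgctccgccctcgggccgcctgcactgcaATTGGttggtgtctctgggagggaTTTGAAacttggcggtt
These stretches lie at KIF20A chr5:138179012-138179131 (plus strand), KIF11 chr10:92593030-92593149 (plus strand), KIFC1 chr6:33391723-33391842 (plus strand), KIF18B chr17:44947754-44947873 (minus strand), KIF23 chr15:69414249-69414368 (plus strand), KIF4A chrX:70290004-70290123 (plus strand) and KIF4B chr5:155013655-155013774 (plus strand). In each of them a CHR core follows a CCAAT box, but all 7 were taken from the 10 mitotic kinesins that hold both elements. Not shown are KIF15 and KIF2C, without a CCAAT box, and KIF22 and KIF2B, without a CHR core, among others. The CHR core began 41 bases before the start in KIF20A, 28 before in KIF11, 55 before in KIF23 and 34 before in KIF4A, and at base 5 after it in KIFC1, base 3 in KIF18B and base 4 in KIF4B. KIF4B is a copy of KIF4A without introns, and its window repeats that of KIF4A around the elements, so these 2 windows are not independent.

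The windows of 4 axonal or general transport kinesins with a single annotated start are shown for contrast, marked in the same way.
KIF3C: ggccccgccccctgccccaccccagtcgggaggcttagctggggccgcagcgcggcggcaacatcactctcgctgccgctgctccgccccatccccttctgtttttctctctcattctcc
KIF5B: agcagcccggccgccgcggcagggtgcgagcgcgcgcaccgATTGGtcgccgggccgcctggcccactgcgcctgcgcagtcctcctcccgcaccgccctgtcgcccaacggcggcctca
KIF3A: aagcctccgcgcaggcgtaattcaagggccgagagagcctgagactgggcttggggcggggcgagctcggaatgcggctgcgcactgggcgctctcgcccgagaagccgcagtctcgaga
KIF3B: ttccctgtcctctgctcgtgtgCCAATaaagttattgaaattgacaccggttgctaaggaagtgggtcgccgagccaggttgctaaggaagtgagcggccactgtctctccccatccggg
They lie at KIF3C chr2:25982478-25982597 (minus strand), KIF5B chr10:32056406-32056525 (minus strand), KIF3A chr5:132737527-132737646 (minus strand) and KIF3B chr20:32277551-32277670 (plus strand). No CHR core lies in these 4 stretches, and KIF5B and KIF3B hold a CCAAT box. Over the full windows and both strands, TTTGAA or TTTAAA occurred in 12 of 14 mitotic kinesins (85.7%), in 1 of 8 axonal kinesins (12.5%) and in 27.9% of all 27305 genes with a window. These are all symbols with a RefSeq window and were not matched to the 27307 genes of the series. Motif shares of all genes below refer to the same set. The exceptions among mitotic genes were KIF22 and KIF2B, and the axonal match was in KIF5B, at position -140 from its start. Within 60 bases before to 40 after the start, a span chosen after the positions were seen, a CHR core lay in 12 of 14 mitotic kinesins, in 0 of 8 axonal kinesins and in 9.39% of all genes.

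CCAAT occurred in 11 of 14 mitotic kinesins (78.6%), in 4 of 8 axonal kinesins and in 39.7% of all genes. A CHR core and a CCAAT box stood together in 10 mitotic kinesins (71.4%), in 1 axonal kinesin and in 11.2% of all genes. The GC box GGGCGG did not set the lists apart, with matches in 12 mitotic and all 8 axonal kinesins and in 48.3% of all genes. Of 14 other cell division genes, a list that includes CENPE, a kinesin gene without a KIF symbol, 11 had a window. A CHR core lay in 9 of these (81.8%), in 6 of them (54.5%) within the narrower span around the start. A CHR core was also found in 4 of 6 neural progenitor markers (66.7%) and in 3 of the 8 neuron markers with a window (37.5%), and within the narrower span in 2 and 0 of them. It stood together with a CCAAT box in 8 cell division genes, 3 progenitor markers and 2 neuron markers. Median GC content of the windows was 62% in mitotic kinesins, 69.7% in axonal kinesins and 58.7% over all windows, and base composition alone changes how often an AT-rich word occurs. A match is a run of letters, and no binding was measured.

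**Figure D1:**
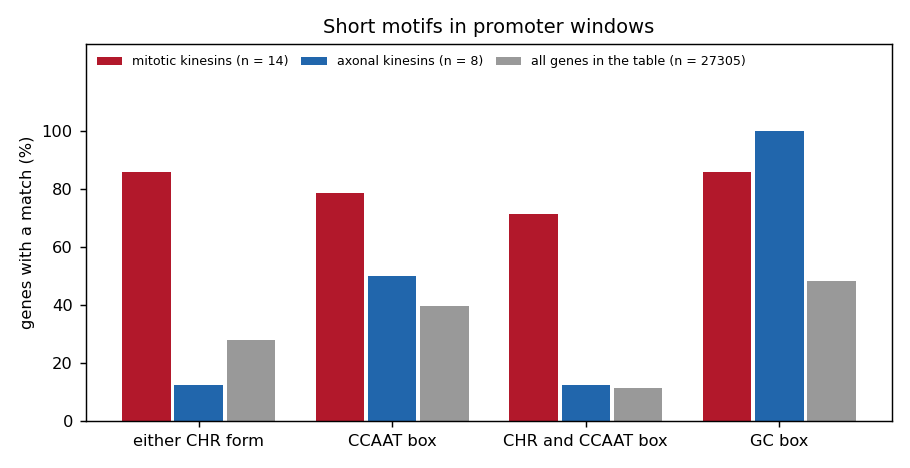
Share of genes (%, vertical axis) whose promoter window holds each motif on either strand, for mitotic kinesins (red), axonal kinesins (blue) and all genes with a window (grey). The CHR core was found in 85.7% of mitotic kinesins, against 12.5% of axonal kinesins and 27.9% of all genes with a window, while the GC box was common in both kinesin lists.

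Most kinesins were transcribed. A gene was called detected at 1 RPKM or more in all 3 teratomas, which held for 36 of the 42 kinesins, against 52.7% of all genes. Detected were 12 of 14 mitotic, 10 of 10 axonal, 6 of 7 other cargo, 4 of 6 cilium and centriole and 4 of 5 remaining kinesins. Under 1 RPKM in every library were KIF2B, KIF6 and KIF25. KIF2B, a spindle kinesin related to KIF2A and KIF2C, had 0 reads in each library, which allows a level of up to 0.0278, 0.028 and 0.0295 RPKM in teratomas 1, 2 and 3 (3 reads, counting error only). KIF14, KIF17 and KIF19 reached 1 RPKM in some libraries but not in others.

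Axonal kinesins stood at higher levels than mitotic ones in each library. The median mitotic kinesin stood at 6.56, 5.96 and 3.69 RPKM in teratomas 1, 2 and 3, and the median axonal kinesin at 20.5, 27.8 and 51.8 RPKM, while the median over the 15701 genes averaging 1 RPKM or more, called expressed genes here, was 7.42, 7.46 and 7.14. On the log2(RPKM + 1) scale the mitotic minus axonal difference of medians was -1.51, -2.05 and -3.47 (mean -2.34 ± 1.01, SD, n = 3). The summed level of the mitotic list over that of the axonal list was 0.705, 0.452 and 0.126. Both measures thus set teratoma 3 apart from the other libraries more than they set those apart from each other.

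**Figure D2:**
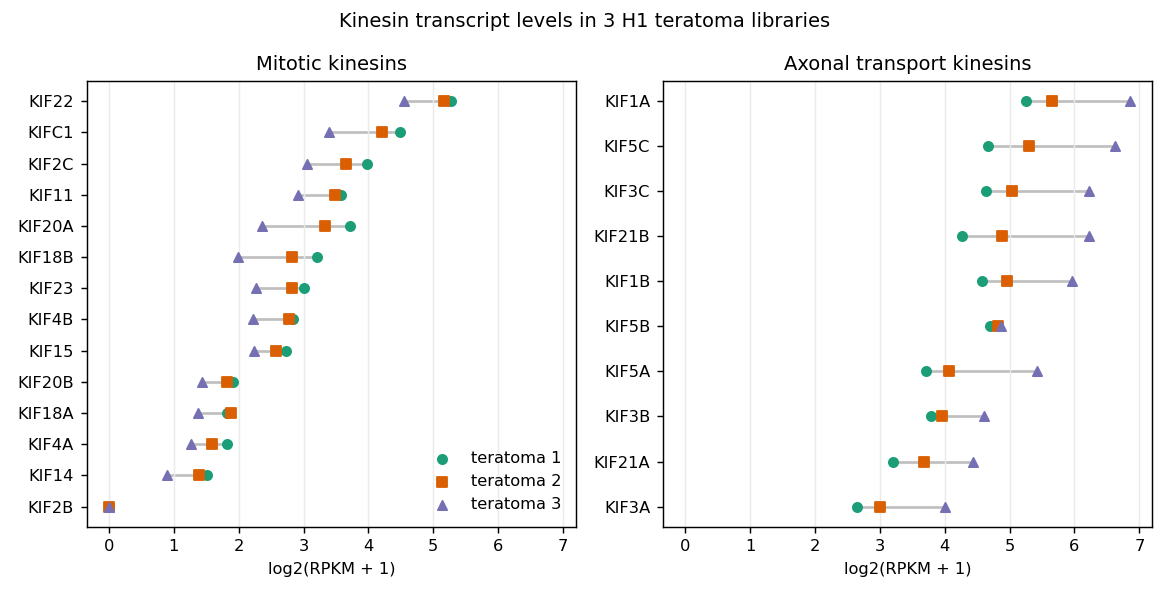
Level of each mitotic (left) and axonal transport (right) kinesin as log2(RPKM + 1) on the horizontal axis, with a point for each teratoma and a grey line from the lowest to the highest. Teratoma 3 (triangles) is the lowest library for 13 of 14 mitotic kinesins, KIF2B being at 0 throughout, and the highest for 10 of 10 axonal kinesins.

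Among mitotic kinesins KIF22, KIFC1 and KIF2C had the highest means. KIF22, a chromosome-bound motor that pushes chromosome arms towards the spindle equator, had 37.7, 34.7 and 22.4 RPKM in teratomas 1, 2 and 3. KIFC1, a minus-end motor that bundles and focuses spindle microtubules, had 21.4, 17.6 and 9.5 RPKM, with 3 listed genome placements of its transcript. KIF2C, which takes microtubules apart at centromeres and corrects wrong attachments, had 14.7, 11.6 and 7.26 RPKM. In these 3 genes teratoma 3 was lowest and teratoma 1 highest. KIF11, the motor that pushes spindle poles apart, had 11, 10.2 and 6.5 RPKM, and KIF15, which can share that task, had 5.61, 4.95 and 3.7 RPKM. KIF11 was the more abundant of the pair in each library.

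The motors of anaphase and cytokinesis differed widely in level. KIF20A, which brings the chromosomal passenger complex to the central spindle, had 12.1, 9.11 and 4.13 RPKM in teratomas 1, 2 and 3. KIF23, the motor of the centralspindlin complex, had 7, 6.06 and 3.8 RPKM. KIF20B, a midzone motor also needed for late cytokinesis, had 2.74, 2.51 and 1.7 RPKM, and KIF14, which acts at the midbody, had 1.86, 1.62 and 0.865 RPKM. Teratoma 3 was again the lowest library for all 4. KIF18B, a regulator of astral microtubule length, had 8.26, 6.09 and 2.95 RPKM, while its relative KIF18A, which damps chromosome movements at the spindle equator, had 2.51, 2.7 and 1.58 RPKM and was the one mitotic kinesin with its highest level in teratoma 2.

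KIF4A and KIF4B are near-identical copies. KIF4A, a chromosome-bound motor that also sets the length of the central spindle, had 2.53, 1.99 and 1.4 RPKM, and its copy KIF4B had 6.11, 5.86 and 3.68 RPKM, 2.66 ± 0.265 times as much (SD, n = 3). In GENCODE 29, KIF4A has 31 exons on chromosome X and KIF4B has 1 exon on chromosome 5, and their coding sequences are 95.7% identical, with 158 differing positions of 3702. The 150 coding bases that differ most, positions 1540 to 1689 of each coding sequence, are given to show how alike the copies are, with capitals at the 14 differing bases.
KIF4A: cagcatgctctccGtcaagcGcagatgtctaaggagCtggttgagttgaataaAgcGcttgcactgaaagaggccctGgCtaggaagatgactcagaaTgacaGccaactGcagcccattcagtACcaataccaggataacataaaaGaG
KIF4B: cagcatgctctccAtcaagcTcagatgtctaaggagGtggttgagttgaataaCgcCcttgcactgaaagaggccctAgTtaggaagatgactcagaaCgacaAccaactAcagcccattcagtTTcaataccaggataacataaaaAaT
Of the stretches of 50 bases in the KIF4A transcript, 14.1% also occurred in the KIF4B transcript. Bowtie2, the aligner named in the submitters' processing notes, does not itself split reads over introns, and how spliced reads were treated is not given in the sources used here. Its part in the order of KIF4A and KIF4B was not tested, and the level of each is uncertain.

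Among axonal transport kinesins KIF1A and KIF5C had the highest means, though KIF5B was above KIF5C in teratoma 1. KIF1A, which carries synaptic vesicle precursors and dense-core vesicles down axons, had 37, 49.1 and 115 RPKM in teratomas 1, 2 and 3. KIF21B, a neuronal motor that also slows microtubule growth, had 18.2, 28.4 and 74.1 RPKM, and KIF21A, its relative, had 8.26, 11.9 and 20.6 RPKM. In all 3 genes teratoma 3 was highest and teratoma 1 lowest. KIF1B, whose long form carries synaptic vesicle precursors and whose short form carries mitochondria, had 22.9, 30.1 and 61.7 RPKM for its transcript of 10581 bases. Its transcript of 7664 bases had 7.96, 8.19 and 13.7 RPKM. The long over the short transcript came to 2.87, 3.68 and 4.5, though reads in exons that both contain may be counted for both.

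The KIF5 genes encode the heavy chains of kinesin-1, the motor of mitochondria, vesicles and slow cytoskeletal cargo. KIF5A and KIF5C are known as the neuronal heavy chains and KIF5B as the one used in most cell types. KIF5C had 24.3, 38.3 and 98.2 RPKM and KIF5A had 12, 15.8 and 41.9 RPKM in teratomas 1, 2 and 3. KIF5B had 25, 27.2 and 28.2 RPKM, the smallest spread of any axonal kinesin, 26.8 ± 1.64 (SD, n = 3). The order of KIF5B and its relatives therefore changed between libraries: KIF5A was below KIF5B in teratomas 1 and 2 and above it in teratoma 3.

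Within a library, KIF5A minus KIF5C was -0.96, -1.23 and -1.21 on the log2(RPKM + 1) scale (mean -1.13 ± 0.15, lower in 3 of 3 libraries, exact two-sided sign-flip permutation p = 0.25, adjusted 0.5 over 3 pairs). KIF5C minus KIF5B was -0.04, 0.48 and 1.76 (mean 0.74 ± 0.93, higher in 2 of 3, exact p = 0.5, adjusted 0.5), and KIF5A minus KIF5B was -1, -0.75 and 0.55 (mean -0.4 ± 0.83, higher in 1 of 3, exact p = 0.5, adjusted 0.5). The smallest p that 3 libraries allow is 0.25, so no pair could pass a test. The summed KIF5A and KIF5C levels were 1.45, 1.99 and 4.96 times that of KIF5B.

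Kinesin-2 motors kept their order in each library. KIF3A and KIF3B pair with each other in axons and in cilia, while KIF3C, which pairs with KIF3A, is enriched in neurons. KIF3C had 23.8, 32 and 73.8 RPKM, KIF3B 12.8, 14.5 and 23.4 RPKM and KIF3A 5.24, 7.05 and 15.1 RPKM in teratomas 1, 2 and 3. All 3 were highest in teratoma 3. KIF3B had the smallest spread of the 3, with a highest library 1.83 times the lowest, beside 3.1 for KIF3C and 2.88 for KIF3A.

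**Figure D3:**
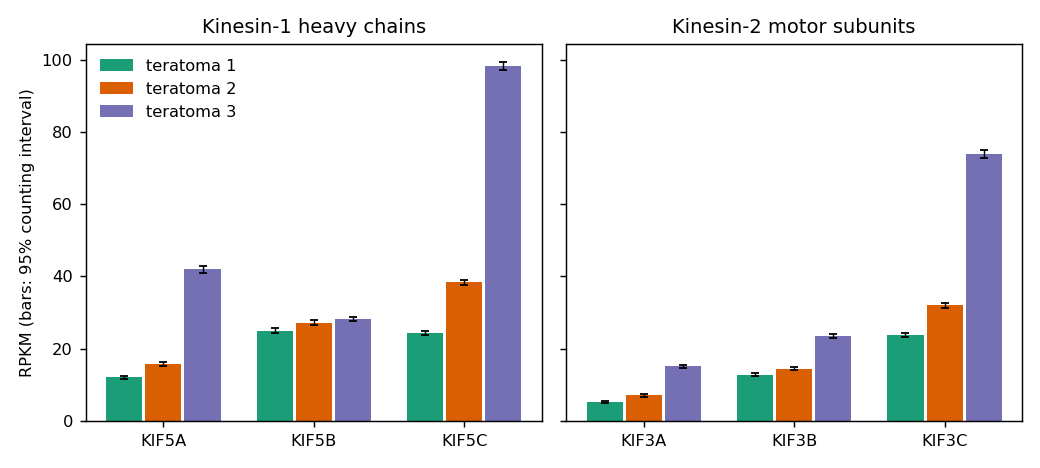
RPKM (vertical axis, from 0) of the kinesin-1 heavy chains and the kinesin-2 motor subunits in each teratoma, with the 95% exact Poisson counting interval of each bar. KIF5B lies between 25 and 28.2 RPKM in all 3 libraries, while KIF5C lies between 24.3 and 98.2 RPKM.

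The 2 lists varied in opposite directions between the libraries. Of the 13 mitotic kinesins with reads, 13 were lowest in teratoma 3 and 12 were highest in teratoma 1, while 48.1% of expressed genes (37.7% of all genes) were lowest in teratoma 3 and 39.8% (31.8%) highest in teratoma 1. Of the 10 axonal kinesins, 10 were highest in teratoma 3, against 39.9% of expressed genes (31.9% of all genes). The counts of 13 mitotic kinesins lowest and 10 axonal kinesins highest in teratoma 3 were the same when each library was rescaled to the same sum or by median-of-ratios factors, and with all transcripts of a gene summed or averaged. Relative to its own mean over the 3 libraries, the median mitotic kinesin was at -0.4 in teratoma 3 and the median axonal kinesin at 0.86 (log2 scale), while the median expressed gene was at -0.04. The 95% counting intervals of the highest and lowest library lay apart for 13 mitotic and 10 axonal kinesins, and for 82.8% of expressed genes. The middle library is not covered by that comparison. For KIF5B the intervals of teratomas 2 and 3 overlapped (26.6 to 27.8 and 27.6 to 28.9 RPKM). Those of teratomas 1 and 2 overlapped for KIF4B (5.77 to 6.46 and 5.53 to 6.21 RPKM), KIF11, KIF14, KIF18A and KIF20B. For these mitotic genes the highest library is uncertain, and so is the count of 12 highest in teratoma 1.

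The size of the spread was larger for axonal kinesins. A range between the highest and lowest library of at least 1 on the log2(RPKM + 1) scale was found for 8 of 10 axonal kinesins, 3 of 14 mitotic kinesins and 15 of 42 kinesins, against 12.1% of all genes and 20% of expressed genes. Such a range with the highest level in teratoma 3 was found for 9 of 42 kinesins, the 8 axonal genes and KIFC2, against 4.52% of all genes and 7.55% of expressed genes. With the lowest level there it was found for 6 of 42, against 7.07% of all genes and 11.8% of expressed genes. Among the 10 axonal kinesins KIF21B and KIF5C spanned the most, with a highest library 4.07 and 4.04 times the lowest, and KIF5B (1.13) and KIF3B (1.83) the least. The 3 mitotic genes, KIF20A (2.94 times), KIF18B (2.8) and KIFC1 (2.25), were among these 6. The counts rest on teratoma 3: without it 0 of 42 kinesins had such a range, and without teratoma 1 there were 9, of which 0 were mitotic.

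**Figure D4:**
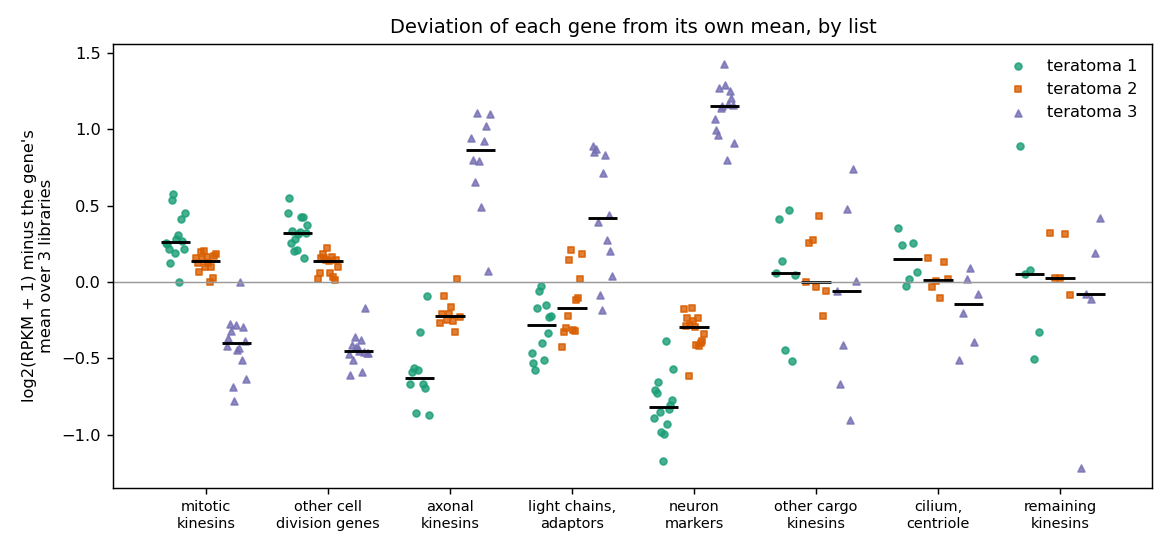
Deviation of each gene from its own mean over the 3 libraries (vertical axis, log2(RPKM + 1) units), by gene list and teratoma, with a black bar at the median. Mitotic kinesins and other cell division genes lie below 0 in teratoma 3 apart from KIF2B, which had no reads, and all axonal kinesins and neuron markers lie above 0 there.

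The summed mitotic kinesins kept nearly the same proportion to other cell division genes in each library. The 14 cell division genes without a kinesin symbol were all lowest in teratoma 3. Among them were TOP2A of chromosome condensation (32.4, 28.6 and 18.4 RPKM), NUSAP1 of spindle microtubules (25.6, 21 and 15.3) and the kinase AURKB (24.3, 16.9 and 10.3). The list also holds CENPE (2.44, 2.34 and 1.33 RPKM), which encodes a mitotic kinesin despite its symbol. Of expressed genes 48.1% were lowest there. The mitotic kinesins summed to 0.573, 0.589 and 0.549 times the total of these 14 genes in teratomas 1, 2 and 3 (mean 0.57 ± 0.0198). Abundant genes weigh most in such sums: KIF22 gave 37.7, 34.7 and 22.4 of the 133, 115 and 69.5 RPKM of the mitotic list. KIF11 was 0.34, 0.357 and 0.354 times TOP2A, and KIF23 was 0.217, 0.212 and 0.207 times TOP2A. Other members varied more. Relative to TOP2A, KIF20A (0.375, 0.319 and 0.225), KIF18B (0.255, 0.213 and 0.161), KIFC1 (0.661, 0.616 and 0.517) and KIF14 (0.0576, 0.0568 and 0.0471) were lowest in teratoma 3. KIF2C (0.453, 0.405 and 0.395) and KIF23 were lowest there too. KIF15 (0.173, 0.173 and 0.201 times TOP2A), KIF20B (0.0848, 0.088 and 0.0927) and KIF22 (1.165, 1.215 and 1.219) were highest in teratoma 3. KIF4A, KIF4B, KIF11 and KIF18A had their middle value there.

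Summed axonal kinesins were 0.203, 0.211 and 0.17 times the summed neuron markers in teratomas 1, 2 and 3 (mean 0.195 ± 0.0216), lowest in teratoma 3. Single axonal kinesins differed in their proportion to neuronal tubulin. TUBB3, a tubulin of neurons, had 435, 510 and 1216 RPKM in teratomas 1, 2 and 3. KIF1A was 0.0851, 0.0964 and 0.0947 times TUBB3, KIF3A 0.0121, 0.0138 and 0.0124 times, and KIF3C 0.0547, 0.0628 and 0.0607 times. KIF5B (0.0575, 0.0533 and 0.0232) and KIF3B (0.0294, 0.0284 and 0.0192) were lower relative to TUBB3 in teratoma 3, while KIF5C (0.0559, 0.0752 and 0.0807) and KIF21B (0.0419, 0.0557 and 0.061) were lower in teratoma 1. The neuron markers MAPT, which encodes tau, and NEFL, a neurofilament, varied more than any axonal kinesin, with MAPT at 31, 59.4 and 193 RPKM and NEFL at 26.4, 43.5 and 132 RPKM.

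Partners of the transport kinesins were also present. All 12 light chains and adaptors were detected, against 91.6% of expressed genes (52.7% of all genes). Highest in teratoma 3 were 9 of 12, against 39.9% of expressed genes (31.9% of all genes). A range of at least 1 was found for 5 of 12, against 20% of expressed genes (12.1% of all genes). KLC1, a light chain of kinesin-1 abundant in neurons, had 55.8, 67.7 and 154 RPKM, and FEZ1, a kinesin-1 adaptor of axons, had 40.9, 42 and 106 RPKM. KIFAP3, the accessory subunit that joins KIF3A and KIF3B, had 11.4, 13.3 and 31.4 RPKM. Teratoma 3 was highest for all 3 genes. TRAK2, KLC3 and KLC4 were highest in teratoma 2, with KLC4 at 16.4, 19.6 and 14.6 RPKM.

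The other cargo kinesins had no common direction. KIFC2, a minus-end motor of neurons in mice, had 9.14, 11.4 and 23.3 RPKM, and KIF17, a dendritic motor in mice, had 0.703, 1.27 and 2.23 RPKM. Both were highest in teratoma 3. KIF1C, a vesicle motor of many cell types, had 19.3, 18.7 and 6.8 RPKM, and KIF13B, a motor of membrane cargo, had 6.47, 5.7 and 2.53 RPKM, and both were lowest there. KIFC3, a minus-end motor of epithelial junctions, had 16.1, 14.9 and 15.7 RPKM, and KIF13A, an endosome motor, had 5.6, 5.35 and 5.1 RPKM. For KIFC3 and KIF13A the counting intervals of the highest and lowest library overlapped. KIF16B, a motor of early endosomes, had 1.96, 2.26 and 1.02 RPKM.

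Cilium and centriole kinesins were low, with a median of 1.98, 1.74 and 1.5 RPKM in teratomas 1, 2 and 3. KIF7, which regulates hedgehog signalling at the tip of the cilium, led with 7.06, 6.4 and 4.15 RPKM, followed by KIF24, a centriole kinesin, with 3.05, 2.34 and 1.97 RPKM. KIF19, which limits cilium length in mice, had 2.18, 1.78 and 0.743 RPKM, and KIF6 had 0.132, 0.039 and 0.193 RPKM on 24, 7 and 33 reads. KIF7, KIF24 and KIF19 were lowest in teratoma 3. There 7 of 8 motile cilium markers were lowest too, against 48.1% of expressed genes (37.7% of all genes), and DNAH5 was highest. Of the 8 markers, 3 (DNAH5, DNAI1 and CCDC39) stayed under 1 RPKM in every library. For DNAI1 and CCDC39, counted among the 7, the counting intervals of the highest and lowest library overlapped. FOXJ1 (26.1, 25.1 and 16.3 RPKM) made up most of their summed level of 41.6, 42.4 and 26.3 RPKM. KIF9 (1.78, 1.69 and 1.52) and KIF27 (1.4, 1.45 and 1.48) hardly varied, with overlapping counting intervals.

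Among the remaining kinesins KIF12 varied most of all 42. KIF12, a kinesin of kidney and liver epithelia, had 22.5, 14.8 and 4.44 RPKM in teratomas 1, 2 and 3, a range of 2.11 on the log2 scale, and was the one kinesin with a range of at least 2. KIF26A, which has no motor activity, stayed at 16.8, 16.2 and 14.6 RPKM, and KIF26B, its relative known from kidney development in mice, had 5.66, 10.8 and 9.82 RPKM. KIF26B was lowest in teratoma 1, unlike KIF12. KIF2A, a microtubule depolymerase of spindles and of growing axons, had 11.6, 14 and 20.2 RPKM and was highest in teratoma 3, as the axonal kinesins were and the related KIF2C was not. KIF25 stood at 0.415, 0.387 and 0.288 RPKM on 26, 24 and 17 reads.

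Of the 42 kinesins, 18 had no 50-base stretch in common with a transcript of another gene. Over 5% of the 50-base stretches of the longest coding transcript occurred in a transcript of another gene, on either strand, for 8 of 42 kinesins. These were KIF4A, KIF4B, KIF7, KIF9, KIF13B, KIF22, KIF27 and KIFC2, and KIF27 had the most, 35.3%. No axonal kinesin was among them, and KIF5A and KIF5B had none in common with any other gene. For the 8 genes, reads could belong to a copy or to an overlapping gene.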

How the data were processed

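RNA-seq of polyadenylated RNA was available from 3 teratoma libraries of 1 group. Per the submitters' processing notes reads were aligned with Bowtie2 to hg19. Its version, the counting tool, the strand setting and any removal of host reads are unknown here (not given in the sources used here). The deposited tables list RPKM and raw read counts per RefSeq transcript, and each RPKM is its count scaled by transcript length and library total. For each symbol the transcript with the highest mean RPKM was kept, which for KIF5C is a non-coding transcript whose level is close to that of the coding one. Members and gene lists were chosen with earlier results of these data known, so lists are described by counts and medians. All kinesins were accounted for, those of the mitotic and axonal lists in detail; of other lists the genes with the highest mean or largest range were named. The log2(RPKM + 1) scale used for ranges and differences shrinks those of low genes. Counting intervals (95%, exact Poisson) and floors of 3 reads cover counting error only. No model across groups was fitted, since there is 1 group. No coordinates of the files' build were used. Promoter windows came from RefSeq (GRCh38.p14) and matched by symbol for 34 of 42 kinesins, and transcripts from GENCODE 29. Python 3.11.15, numpy 2.4.6, pandas 2.3.3, scipy 1.17.1, Biopython 1.88 and matplotlib 3.10.9 were used. The range statistic was run on simulated Poisson counts with planted changes larger than its cut-off. That run checks the code and not how the statistic behaves in these libraries, which differ by more than counting error.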

Additional observations from a re-analysis of the deposited data

How the results depend on the processing

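Counts were judged by their fold difference from the reported count, list differences and ratios by the spread between libraries, and KIF5 differences by sign alone. By these rules 93 of 102 alternative values were called the same and 9 moved, and no difference turned in sign. The tally is no measure of robustness, since some values could not differ. The filter on a mean of at least 1 RPKM left the KIF5 differences unchanged. KIF5A and KIF5B each have a single listed transcript to sum or average. The rule for the ratio of sums was also wide, with an SD of 0.29 beside a mean of 0.427. With detection at 5 RPKM, 21 kinesins and 4 mitotic kinesins were detected. With a range of at least 2, 1 kinesin varied. With a pseudocount of 0.1, a range of at least 1 was found for 21 kinesins instead of 15, and for 5 mitotic kinesins instead of 3. With each library left out in turn, the number with a range of at least 1 lay between 0 and 15 for all kinesins, between 0 and 3 for mitotic and between 0 and 8 for axonal kinesins, in each case 0 without teratoma 3. The mitotic minus axonal difference of medians lay between -2.76 and -1.78 and the ratio of sums between 0.289 and 0.578. The number detected lay between 36 and 38 for all kinesins, between 12 and 13 for mitotic kinesins and was 10 for axonal kinesins. Leaving out KIF4A, KIF4B and KIFC1, an alternative chosen after seeing the data, gave a difference of medians of -2.3. No paired analysis was possible because all libraries form 1 group, so replicate numbers pair no samples across groups; the KIF5 differences are between genes of 1 library. Depth limited the lowest genes: 3 reads at the median length of 2500 bases correspond to 0.0259, 0.0262 and 0.0275 RPKM.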

Other observations

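The antisense transcripts KIF9-AS1 and KIF25-AS1, which are not kinesins, were listed with reads in each library. KIF9-AS1 had 1.4, 1.68 and 2.37 RPKM in teratomas 1, 2 and 3, beside KIF9 at 1.78, 1.69 and 1.52 RPKM. KIF25-AS1 had 0.954, 0.684 and 1.26 RPKM on 62, 44 and 77 reads, beside KIF25 at 0.415, 0.387 and 0.288 RPKM. Both antisense transcripts were highest in teratoma 3, while KIF9 and KIF25 were lowest there. For KIF9 and for KIF25, however, the counting intervals of the highest and lowest library overlapped. KIF25 had only 26, 24 and 17 reads in teratomas 1, 2 and 3. The order of the libraries for KIF9 and KIF25 is thus uncertain, and an opposite direction of sense and antisense transcripts was not tested. The strand setting of the counting is not given, and 10.2% of the 50-base stretches of the KIF9 transcript also occur in KIF9-AS1, so reads of KIF9 and KIF9-AS1 cannot be told apart with certainty.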
